A study of Mus musculus with 32 samples.

Results

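Mesothelial marker genes were examined in epididymal white adipose tissue (eWAT), the abdominal fat depot beside the epididymis of male mice. The 8 genes (Msln, Upk3b, Upk1b, Wt1, Krt19, Krt8, Krt18 and Lrrn4) were taken as markers of a single cell type. They were chosen with earlier results of these data known. Each was found in the deposited count file by its Ensembl identifier, so that 8 of the 47643 genes of the file were followed. All 8 passed the filter on low counts in eWAT, where 15187 genes were tested. The question was whether oral corticosterone (cort), the main glucocorticoid of mice, or a high-protein diet (HPD) moved these genes.

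The mesothelium is the single layer of flat epithelial cells that covers the organs and walls of the body cavities, and eWAT, as a fat pad inside the abdomen, is wrapped in it. These cells make a lubricating surface, carry an epithelial keratin cytoskeleton, and keep the transcription factor Wt1 from their origin in the embryonic mesoderm.

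The samples were from male C57BL/6J mice (C57BL/6 in the labels) whose treatment began at 10 weeks of age, and all of them first ate a purified diet with 20% of its calories from whey protein. Mice then stayed on that normal-protein diet (NPD) or changed to one of equal calories with 60% from whey protein (HPD). The HPD held less carbohydrate in exchange, as corn starch, so that a difference between diets cannot be assigned to protein alone. The mice drank water with cort or with its ethanol vehicle (veh). The vehicle groups are called Veh NPD and Veh HPD and the cort groups Cort NPD and Cort HPD, and each of these 4 had 4 eWAT and 4 liver libraries, made with a kit that reads the 3′ ends of messenger RNAs. The labels name no transgene or deletion. The labels do not give the length of treatment for the sequenced tissue, nor which cohort, cage or day each mouse came from, so that a batch of that kind cannot be told apart from the groups, and the p-values measure the spread between the libraries as labelled.

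Levels are given as CPM, counts as a share of the library total on a common scale, with totals adjusted by TMM factors for unequal RNA composition. A transcript gives about 1 read however long it is, so that CPM can be set side by side between genes without a length. The eWAT libraries held between 9794683 and 18057936 counts. Adipocyte genes of a list of 8 summed to between 32900 and 56866 CPM in 15 of the libraries. Cort HPD replicate 4 carried RNA of the epididymis. The 17 listed epididymal genes that were in the file summed to 26463 CPM in it and to at most 16.3 CPM in any of the other 15. Gpx5, a secreted peroxidase of the epididymal duct, had 226639 counts there and at most 82 elsewhere. The other libraries were not all free of such RNA. Cort HPD replicates 2 and 3 had the largest sums among them, 16.3 and 12.2 CPM. The listed germ cell genes of the testis summed to at most 0.515 CPM in any eWAT library. The tests below used all 16 libraries. Values without Cort HPD replicate 4, called below the library with epididymal RNA, are given beside many of them.

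In the GRCm38 genome (GENCODE annotation) the members are protein-coding genes on 6 chromosomes. Msln lies at chr17:25748613-25754378 on the minus strand, Upk3b at chr5:136038496-136046487 on the plus strand and Upk1b at chr16:38773184-38800328 on the minus strand. Wt1 lies at chr2:105126529-105173616 on the plus strand and Lrrn4 on the same chromosome, at chr2:132868305-132880891 on the minus strand. Krt19 lies at chr11:100140810-100148665 on the minus strand. Krt8 (chr15:101996698-102004482, minus strand) and Krt18 (chr15:102028180-102032027, plus strand) are neighbors, 23698 bases apart. The 5′ end of Krt8 overlaps the noncoding gene Gm36026 of the opposite strand, which reaches into the gap between the pair and is the 1 annotated gene there, and the sources used here do not say whether counting used the strand.

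Promoter windows from RefSeq (GRCm38.p6) were matched for 4 members (Upk3b, Krt8, Krt18 and Lrrn4), each with 250 bases before and 50 after the annotated start. Those of Lrrn4, the member that fell under cort, and of the keratin pair, which stood out in the library with epididymal RNA, are printed 5′ to 3′ on the strand of the gene. The windows are chr2:132880813-132881112 (minus strand) for Lrrn4, chr15:102004293-102004592 (minus strand) for Krt8 and chr15:102027966-102028265 (plus strand) for Krt18. Capitals mark matches to any of the searched motifs.
Lrrn4: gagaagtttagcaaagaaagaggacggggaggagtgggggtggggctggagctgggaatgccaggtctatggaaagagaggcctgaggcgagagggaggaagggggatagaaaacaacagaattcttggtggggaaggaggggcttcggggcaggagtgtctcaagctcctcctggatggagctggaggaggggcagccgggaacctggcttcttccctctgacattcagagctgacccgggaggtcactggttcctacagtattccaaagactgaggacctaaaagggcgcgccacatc
Krt8: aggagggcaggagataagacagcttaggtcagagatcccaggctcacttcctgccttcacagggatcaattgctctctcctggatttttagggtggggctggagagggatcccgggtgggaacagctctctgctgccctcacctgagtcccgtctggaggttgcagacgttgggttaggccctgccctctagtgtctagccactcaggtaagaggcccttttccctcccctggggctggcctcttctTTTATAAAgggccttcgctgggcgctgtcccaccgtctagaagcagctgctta
Krt18: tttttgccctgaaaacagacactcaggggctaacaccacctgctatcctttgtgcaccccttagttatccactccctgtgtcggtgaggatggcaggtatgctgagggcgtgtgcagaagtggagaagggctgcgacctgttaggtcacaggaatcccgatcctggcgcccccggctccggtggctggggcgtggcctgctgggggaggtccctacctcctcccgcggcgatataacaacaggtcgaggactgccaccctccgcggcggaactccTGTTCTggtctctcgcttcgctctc
The motifs were searched on both strands. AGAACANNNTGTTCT, the palindrome bound by the glucocorticoid receptor, was in 0 of the 4 windows and in 0.00922% of 32544 distinct promoter windows of the same length. Its 6-base arm AGAACA had 1 match, in Krt18 on the opposite strand from base 276 of the window, and was found in 18.9% of all windows. TATAAA, the TATA box, had 2 overlapping matches in Krt8, from bases 248 and 250 on opposite strands, and was found in 13.6% of all windows. GGGCGG, the GC box, was in 0 of the 4 and in 35.9% of all windows. The windows of Lrrn4 and Upk3b held none of these letters.

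The members spanned a wide range of levels in eWAT. Upk3b, an uroplakin of the cell membrane, was the most abundant at 69.4 ± 21.5 CPM (SD, n = 16). It lay above every other member in each of the 15 libraries other than Cort HPD replicate 4. Krt19, a keratin of simple epithelia, followed at 21.0 ± 6.17 CPM. Upk1b, a tetraspanin of the uroplakin family, had 17.4 ± 5.79 CPM. Msln, the cell surface glycoprotein mesothelin, had 16.3 ± 6.06 CPM and Lrrn4, a leucine-rich repeat membrane protein, had 14.9 ± 6.48 CPM. Wt1, a zinc finger transcription factor, had 10.9 ± 3.19 CPM. These neighbors in the order, from Krt19 down to Wt1, differed by less than the sum of their spreads. Krt8 and Krt18, which pair to form the filaments of simple epithelia, were the lowest in most libraries, with medians of 3.70 and 3.48 CPM. Their means of 4.36 ± 3.28 and 6.50 ± 11.1 CPM were pulled up by a single library.

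Liver of the same 4 treatment groups was a second tissue and is given as levels, without a test. The labels do not tie liver libraries to the mice that gave the eWAT. In its 16 libraries 6 of the 8 genes had means between 0.343 CPM (Lrrn4) and 1.32 CPM (Upk3b) and no value above 2.58 CPM. In eWAT the lowest value of those 6 genes was 6.95 CPM, so that the tissues did not overlap. Krt8 and Krt18 went the other way. Hepatocytes make both, and liver held 63.2 ± 32.4 CPM of Krt8 and 115 ± 50.8 CPM of Krt18 (SD, n = 16), with lowest values of 33.4 and 59.2 CPM. The listed hepatocyte genes summed to between 33.7 and 88.8 CPM in the 15 eWAT libraries. In these libraries 6 of the members were higher in eWAT than in liver, and the keratin pair was lower. Levels in whole tissue do not show which cells made the RNA.

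**Figure D1:**
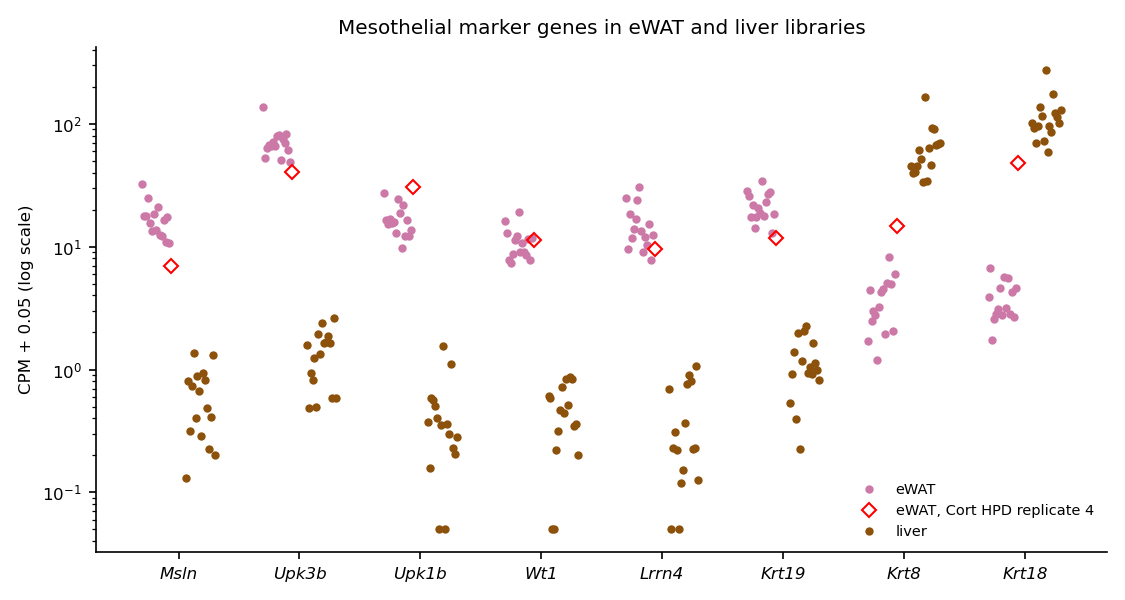
CPM plus 0.05 on a log axis for each of the 8 genes in the 16 eWAT and 16 liver libraries, 1 point per library, with the Cort HPD replicate 4 eWAT library as a red diamond. The 6 genes from Msln to Krt19 are higher in every eWAT library than in any liver library, and Krt8 and Krt18 are lower in eWAT.

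With edgeR 0 or 1 of the 8 members was called for cort in each comparison, and a member not called is not thereby shown to be unmoved. On the NPD 0 of the 8 members passed an adjusted p under 0.05, where 7.98% of all tested genes did, and on the HPD it was again 0, where 6.09% did. For the mean of the cort effects on both diets 1 member, Lrrn4, passed and was lower under cort, where 15.5% of all genes passed, 7.41% lower and 8.13% higher. Without Cort HPD replicate 4 the members' counts were the same 3, where 8.71%, 4.78% and 15.5% of all genes passed. With edgeR the share of members called in either direction was thus no higher than that of all genes. In the lower direction 1 of 8 for the mean compares with the 7.41% above (7.73% without that library). Of the 8 members 5 had a negative estimate in each of the 3 comparisons, where 52.5%, 50.3% and 51.8% of all genes did. They were not the same 5 throughout. On the HPD Upk1b was at 0.09 on the log2 scale, and Krt19, at a fold of 0.998, counted as negative. The members' log2 fold changes had medians of −0.23 (NPD), −0.14 (HPD) and −0.18 (mean), and those of all genes −0.02, 0 and −0.02. At an unadjusted p under 0.05, Msln was lower on the NPD, Lrrn4 lower and Krt8 and Krt18 higher on the HPD, and Msln and Lrrn4 lower and Krt8 higher for the mean, where 20.3%, 18.9% and 28.1% of all genes had such a p. Leaving out Cort HPD replicate 4, the members with such a p were Msln on the NPD, Lrrn4 on the HPD and both for the mean, all lower, where 20.9%, 17.3% and 27.9% of all genes had one. DESeq2 called 0, 1 and 2 members in the 3 comparisons, where it called 10.1%, 7.85% and 17.8% of the genes to which it gave an adjusted p. Limma voom called 0, 0 and 2 members and 7.64%, 5.85% and 15.9% of all genes.

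**Figure D2:**
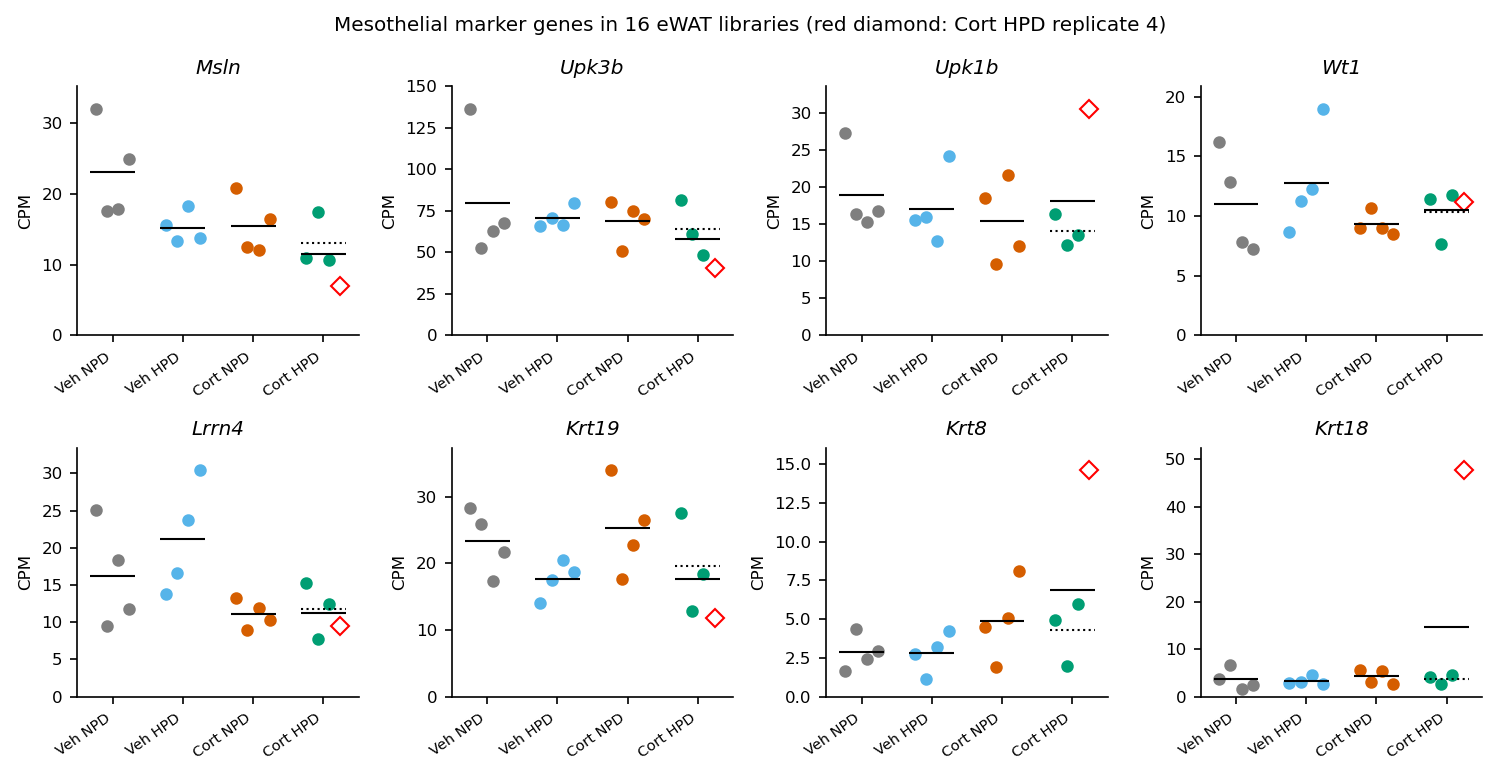
CPM of each member in the 4 eWAT groups, 1 point per library, on linear axes that start at 0, with solid lines at the mean of 4 libraries and dotted lines at the mean of the 3 Cort HPD libraries without replicate 4 (red diamond). Lrrn4 sits between 7.79 and 15.2 CPM in all 8 Cort libraries and up to 30.4 CPM in the Veh libraries, and the red diamond is far above the rest for Krt18.

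Lrrn4 was the member with the clearest change. Its levels were 25, 9.53, 18.4 and 11.8 CPM in the Veh NPD libraries (replicates 1 to 4) and 13.2, 8.94, 11.9 and 10.3 CPM in the Cort NPD libraries. In Veh HPD they were 13.8, 16.6, 23.7 and 30.4 CPM, and in Cort HPD 15.2, 7.79, 12.4 and 9.46 CPM. All 8 Cort values were at most 15.2 CPM, whereas 5 of the 8 Veh values were above that, and the groups overlapped on both diets. The log2 fold change under cort was −0.54 (SE 0.29, edgeR adjusted p = 0.29) on the NPD and −0.91 (SE 0.29, edgeR adjusted p = 0.059) on the HPD. The mean of both was −0.73 (SE 0.20, 95% interval −1.14 to −0.31, edgeR adjusted p = 0.014). Without Cort HPD replicate 4 the mean was −0.69 (SE 0.21, edgeR adjusted p = 0.025), and limma voom without that library gave −0.62 (adjusted p = 0.067). The mean kept an adjusted p of at most 0.045 when any 1 library was left out. The value of 0.045 came without Veh NPD replicate 1, where Lrrn4 was highest of its group.

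Msln had a negative estimate on both diets and did not pass the test. It had 32.1, 17.6, 17.8 and 24.9 CPM in Veh NPD and 20.8, 12.4, 12.1 and 16.5 CPM in Cort NPD. In Veh HPD it had 15.5, 13.3, 18.2 and 13.7 CPM, and in Cort HPD 10.9, 17.5, 10.6 and 6.95 CPM. The Cort groups reached into the Veh range on both diets. The log2 fold change was −0.58 (SE 0.25, edgeR adjusted p = 0.18) on the NPD, −0.41 (SE 0.25, edgeR adjusted p = 0.41) on the HPD and −0.50 (edgeR adjusted p = 0.060, 95% interval −0.86 to −0.13) for the mean. Without the library with epididymal RNA, in which Msln was lowest of all, the mean was −0.41 (edgeR adjusted p = 0.11).

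The uroplakins and Wt1 were not shown to change. Upk3b had 137, 52.9, 62.8 and 67.5 CPM in Veh NPD and 80.1, 50.7, 75.2 and 69.8 CPM in Cort NPD. In Veh HPD it had 65.9, 70.8, 66.3 and 79.8 CPM, and in Cort HPD 81.7, 61.3, 48.6 and 40.3 CPM. A single library, Veh NPD replicate 1, set the spread of its group, and without it the NPD effect of −0.21 turned to 0.17. The mean effect was −0.25 (95% interval −0.66 to 0.16) for Upk3b, −0.10 (−0.53 to 0.33) for Upk1b and −0.26 (−0.66 to 0.14) for Wt1, with edgeR adjusted p-values of 0.44, 0.81 and 0.41. Upk1b ranged from 9.67 to 30.6 CPM, its highest value being in Cort HPD replicate 4, and its mean effect was −0.29 (−0.66 to 0.09) without that library, where those of Upk3b and Wt1 were −0.18 and −0.28. Wt1 ranged from 7.23 to 19.0 CPM, and its 4 Cort NPD values lay close together, between 8.46 and 10.7 CPM. Other uroplakin genes of the bladder lining (Upk1a, Upk2, Upk3a and Upk3bl) were not tested, since 0 of 4 passed the filter and none exceeded 0.698 CPM.

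Of the keratins, Krt19 was not shown to change. It had 28.3, 25.8, 17.3 and 21.7 CPM in Veh NPD, 34.0, 17.6, 22.8 and 26.5 CPM in Cort NPD, 14.0, 17.4, 20.5 and 18.7 CPM in Veh HPD and 27.5, 12.8, 18.4 and 11.8 CPM in Cort HPD. The mean effect was 0.06 on the log2 scale (95% interval −0.29 to 0.40, edgeR adjusted p = 0.87), so that a doubling or a halving lay outside the interval. It was 0.13 (−0.20 to 0.47) without Cort HPD replicate 4.

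Krt8 was higher under cort in its estimates, without passing the test. Its levels were 1.67, 4.39, 2.42 and 2.96 CPM in Veh NPD and 4.48, 1.89, 5.05 and 8.10 CPM in Cort NPD. In Veh HPD they were 2.73, 1.15, 3.18 and 4.22 CPM, and in Cort HPD 4.92, 2.0, 5.98 and 14.6 CPM. In both diets 3 of the 4 Cort libraries were above the highest Veh library and 1 was within the Veh range. The log2 fold change was 0.77 (SE 0.52, edgeR adjusted p = 0.45) on the NPD, 1.30 (SE 0.52, edgeR adjusted p = 0.15) on the HPD and 1.03 (edgeR adjusted p = 0.056) for the mean. Without Cort HPD replicate 4, which had the highest value, these became 0.62 on the HPD and 0.69 (95% interval −0.03 to 1.42, edgeR adjusted p = 0.20) for the mean.

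Krt18, the partner of Krt8, was not shown to change either, and the difference between the pair was not tested. It had 3.83, 6.63, 1.68 and 2.55 CPM in Veh NPD, 5.64, 3.13, 5.52 and 2.76 CPM in Cort NPD and 2.79, 3.08, 4.59 and 2.72 CPM in Veh HPD. In Cort HPD it had 4.2, 2.63, 4.59 and 47.7 CPM. The HPD effect of 2.17 on the log2 scale (SE 0.80, edgeR adjusted p = 0.15) came from the last of these libraries, and without it the estimate was 0.21 (95% interval −0.75 to 1.18). On the NPD it was 0.22.

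**Figure D3:**
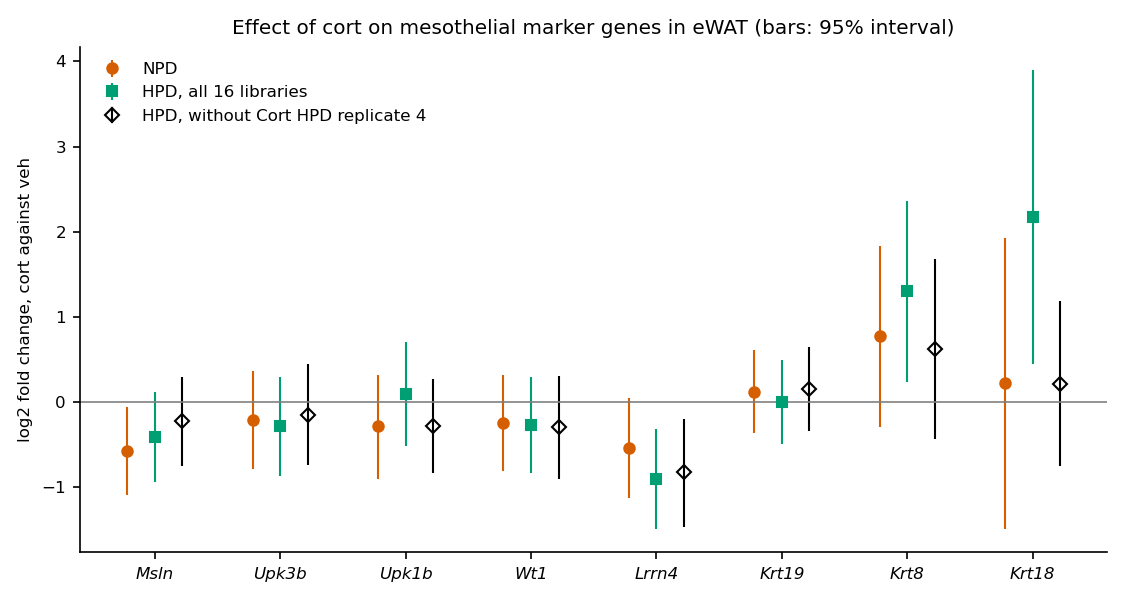
Log2 fold change of cort against veh for each member on the NPD (circles), on the HPD from all 16 libraries (squares) and on the HPD from the 15 other than Cort HPD replicate 4 (open diamonds), with bars for the 95% interval. Lrrn4 is below 0 in all 3 estimates, and Krt18 on the HPD moves from 2.17 to 0.21 when that library is left out.

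In the library with epididymal RNA 3 of the 8 members lay above the range of the other 15 and 3 below it. The share of all genes outside that range is not given here, so that these counts are a description. Krt18 was 47.7 CPM in it and at most 6.63 CPM in the other 15, Krt8 was 14.6 against at most 8.10 CPM, and Upk1b was 30.6 against at most 27.4 CPM. Msln at 6.95, Upk3b at 40.3 and Krt19 at 11.8 CPM were each below the lowest of the other 15, whereas Wt1 and Lrrn4 lay within their range. The members' summed level was 173 CPM, which was inside the range of 115 to 271 CPM of the others, so that the sum did not show what the single genes did.

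Of the 13 other keratin and epithelial junction genes, 9 were higher in the same library than in any of the other 15, and 4 lay within their range. Here too the share of all genes above that range is not given. Krt23 had 860 counts there and at most 1 elsewhere, and Krt5, a keratin of basal cells, had 131 counts there and 0 in all of the other 15. The claudin Cldn4 was 41.7 against at most 0.798 CPM, the cadherin Cdh1 49.6 against at most 5.09 CPM and the adhesion protein Epcam 36.9 against at most 4.32 CPM. The membrane linker Ezr was 260 against at most 68.4 CPM. Krt7, which mesothelium also makes, was 7.21 CPM and within the range of the others. The junction proteins Pkp2 at 35.5 CPM and Jup at 118 CPM were within it too, below the medians of 52.1 and 127 CPM, and Krt20 had 0 counts. The part of the epididymal RNA in the values of Krt8, Krt18 and Upk1b was not tested beyond leaving the library out. Of the 13 genes 9 were tested with all libraries and edgeR called 0 in each cort comparison. At an unadjusted p under 0.05, 1 was lower on the NPD, 3 were higher on the HPD and 1 was lower for the mean. Without that library edgeR called 1 of 10 tested, namely Ezr, lower for the mean (−0.34, SE 0.12), with an edgeR adjusted p that rounds to 0.050.

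**Figure D4:**
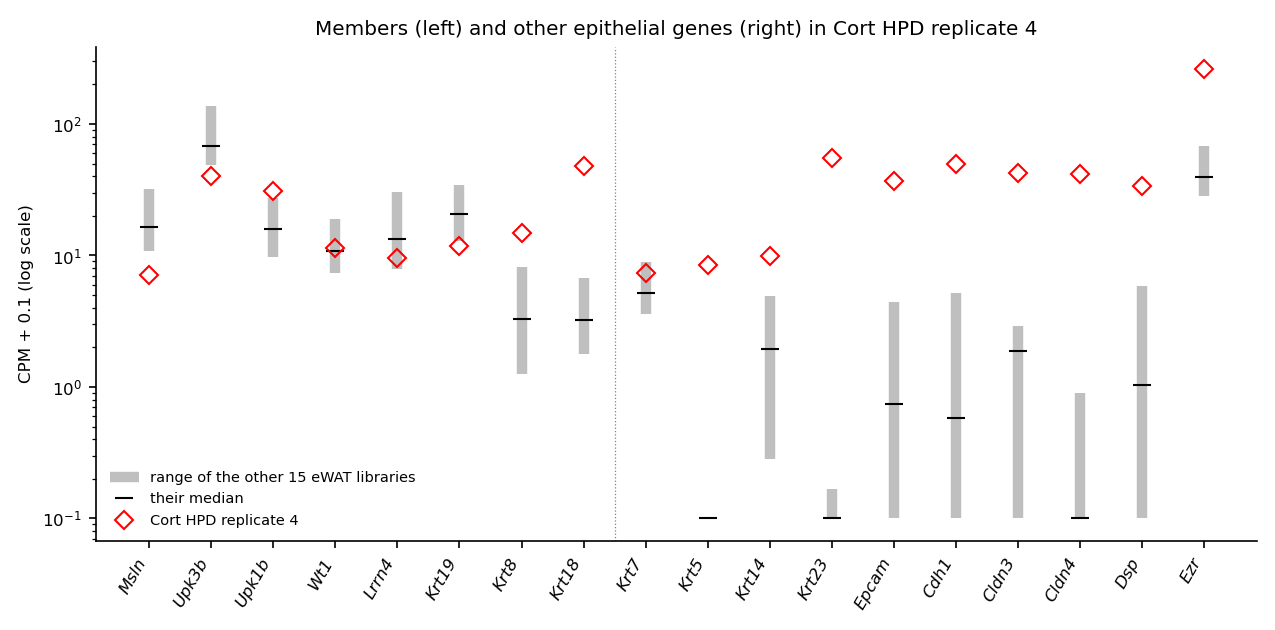
CPM plus 0.1 on a log axis in Cort HPD replicate 4 (red diamonds) against the range (gray bars) and median (black dashes) of the other 15 eWAT libraries, for the 8 members left of the dotted line and 10 other epithelial genes right of it. Krt8 and Krt18 stand above the gray bars as most genes on the right do, and Msln, Upk3b and Krt19 stand below them.

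The diet alone moved none of the members past the test. For HPD against NPD under veh 0 of 8 were called, where 0.0593% of all genes were, and under cort 0 of 8, where 0.487% were. Without the library with epididymal RNA it was again 0 and 0, where 0.148% and 0.263% were. edgeR gave 1 member with an unadjusted p under 0.05 in the first comparison and 2 in the second (8.03% and 9.81% of all genes), and DESeq2 and limma voom also called 0 in both, where DESeq2 called 1.5% and 1.29% of the genes to which it gave an adjusted p and voom 0.158% and 0.481% of all genes. Under veh, Msln had the smallest p, with 15.2 ± 2.24 CPM on the HPD and 23.1 ± 6.88 CPM on the NPD (SD, n = 4) and a log2 fold change of −0.61 (SE 0.25, edgeR adjusted p = 0.51). Under cort, Krt19 was 17.6 ± 7.20 CPM on the HPD and 25.2 ± 6.88 CPM on the NPD, with −0.52 (SE 0.24, edgeR adjusted p = 0.48), and −0.36 without Cort HPD replicate 4. Krt18 was the other, at 1.80 with all libraries and −0.16 without that one. The groups overlapped for all 8 members in each comparison of 2 groups, where 14.9% of all genes did not overlap for cort on the NPD, 11.3% for cort on the HPD, 4.28% for diet under veh and 6.66% for diet under cort.

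The effect of cort was not shown to depend on the diet. The difference between the cort effect on the HPD and that on the NPD was tested directly as an interaction, and 0 of 8 members passed, where 0.0132% of all genes did (0% without Cort HPD replicate 4). An unadjusted p under 0.05 was found for 5.16% of all genes and for 0 members, and DESeq2 and limma voom called 0 members too, where they called 0.288% and 0% of genes. Its estimates ran from −0.36 (95% interval −1.19 to 0.47) for Lrrn4 to 1.95 (−0.46 to 4.36) for Krt18. Without the library with epididymal RNA the latter was −0.01 (−1.33 to 1.32). For all 8 members the interval with 16 libraries reached past 0.8 log2 units on at least 1 side of 0. A difference of that size was thus not excluded in at least 1 direction.

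Members rose and fell together from library to library to a varying degree. After the mean of each group was subtracted from log2 CPM, the 28 pairs of members were compared over the 15 libraries other than Cort HPD replicate 4. Pearson's r ran from −0.21 for Msln and Krt8 to 0.75 for Upk3b and Upk1b, with Upk3b and Lrrn4 at 0.67 and Krt8 and Krt18 at 0.30. Upk1b and Lrrn4 had an r of 0.61, as did Krt19 and Krt18. By Spearman's rho Upk3b with Upk1b (0.67) and Upk3b with Lrrn4 (0.65) were again the highest, Krt19 with Krt18 followed at 0.60, and Upk1b with Lrrn4 was lower, at 0.49. Veh NPD replicate 1 had the largest summed level of the members, 271 CPM against at most 193 CPM in the others, and also the largest sum of the other mesothelial genes, 400 against at most 345 CPM. The points share a library and its depth, and the correlations are given as a description.

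Against the mean profile of the 8 members over these 15 libraries, Krt19 had the highest r of the members at 0.87 and Msln the lowest at 0.25. Each member is part of that mean, which raises its r, so that members and other genes cannot be ranked on equal terms. The r that the best of all genes would reach by chance was not computed. Among all other genes the 5 most alike were Mmgt1 (r = 0.89), Snrnp27 (0.89), Gm43712 (0.88), Wdr18 (0.88) and Exosc9 (0.87). Snrnp27 is a protein of the spliceosome and Exosc9 a subunit of the RNA exosome. Slpi, a secreted protease inhibitor of the other mesothelial list, reached 0.84 at rank 15, and Rspo1 0.70. The rest of that list was lower, from Muc16 at 0.61 to Pkhd1l1 at 0.11, with Aldh1a2 at 0.20 and Bcam at 0.18. The complement gene C1qa, of the macrophage list, reached 0.83. A total of 28 genes had r above 0.8, and the 5 best matches were in neither mesothelial list.

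A further 12 genes known from mesothelium were taken as a second list. Of these 11 were tested, and Calb2 (calretinin) had 0 counts in every eWAT library. On the NPD 2 were lower under cort, on the HPD 1 was lower and for the mean 3 were lower, with 0 higher in each, where 3.93%, 2.63% and 7.41% of all genes were lower. Without Cort HPD replicate 4 the counts were 2, 0 and 3, where 4.44%, 1.91% and 7.73% were. The median log2 fold change of the list was −0.54 for the mean, and −0.41 without that library. For the mean, Aldh1a2, which makes retinoic acid from retinaldehyde, fell by 1.13 on the log2 scale (SE 0.21, edgeR adjusted p = 0.00027). Bcam, a laminin receptor, fell by 0.74 (SE 0.18, edgeR adjusted p = 0.0038) and the membrane glycoprotein Gpm6a fell by 0.54 (SE 0.14, edgeR adjusted p = 0.0062). None of these 3 was called on both diets. Aldh1a2 was called on the NPD (−1.39) and not on the HPD (−0.88, edgeR adjusted p = 0.075). Bcam was called on the NPD (−1.10) and not on the HPD (−0.39, edgeR adjusted p = 0.42). Gpm6a was called on the HPD (−0.71) and not on the NPD (−0.37, edgeR adjusted p = 0.29).

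The remaining 8 did not pass. Nkain4 had −0.84 (edgeR adjusted p = 0.056), Muc16, the mucin known as CA125, −0.56 (edgeR adjusted p = 0.25) and Rspo1 −0.37 (edgeR adjusted p = 0.083). Slpi and Pdpn, at 0.07 and 0.00, had SEs of 0.16. Of the 19 tested genes in both mesothelial lists, then, 4 were lower and 0 higher for the mean of both diets, where 7.41% of all genes were lower and 8.13% higher. Both lists were chosen with earlier results of these data known, so that this count is a description.

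Genes of other cell types of the fat pad moved in the same libraries. In a bulk sample, fewer cells of a type and less RNA per cell cannot be told apart, and the part of a shift between cell types in the values of Lrrn4 or Msln was not tested. For the mean of the cort effects, to which the counts of these lists refer, 7.41% of all genes were lower and 8.13% higher. Without Cort HPD replicate 4, 7.73% were lower. Of 7 stromal progenitor genes 6 were lower for the mean and 0 higher, with a median of −1.23. All 7 were lower without Cort HPD replicate 4, with a median of −1.21, the added gene being the receptor Pdgfra (−0.66, edgeR adjusted p = 0.00095, against −0.49 and 0.055 with it). The proteoglycan Lum fell by 1.40 (edgeR adjusted p = 3e-07), the progenitor marker Pi16 fell by 1.52 (edgeR adjusted p = 4.1e-05) and the proteoglycan Dcn fell by 0.46 (edgeR adjusted p = 0.00083). Their summed level was between 2210 and 2763 CPM in the 7 Cort libraries other than Cort HPD replicate 4. It was between 3566 and 4216 CPM in the 8 Veh libraries. Of 7 endothelial genes 2 were lower, the angiopoietin receptor Tek by −0.83 (edgeR adjusted p = 0.00097) and the cadherin Cdh5 by −0.76 (edgeR adjusted p = 0.0031). The 4 smooth muscle genes had 1 lower, the actin Acta2 (−0.86, edgeR adjusted p = 0.034).

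Adipocyte and macrophage genes went both ways. Of 8 adipocyte genes 3 were higher and 2 lower, where 8.13% and 7.41% of all genes were. The hormone gene Lep rose by 1.48 (edgeR adjusted p = 0.0017), Cidec of the lipid droplet by 0.32 (edgeR adjusted p = 0.025) and the lipase Lipe by 0.26 (edgeR adjusted p = 0.042), while Cfd (adipsin) fell by 1.92 (edgeR adjusted p = 0.00017) and Adipoq (adiponectin) fell by 0.69 (edgeR adjusted p = 1.8e-05). Of 7 macrophage genes, the lysosomal Cd68 was higher (0.61, edgeR adjusted p = 0.0015), and the receptors Mrc1 (−0.58, edgeR adjusted p = 0.00019) and Adgre1 (−0.62, edgeR adjusted p = 0.00039) were lower. The stromal list had a larger share of its genes lower, and the size of its median was above that of the mesothelial lists. The difference between lists was not tested. The endothelial, smooth muscle, adipocyte and macrophage lists had the same counts higher and lower for the mean when Cort HPD replicate 4 was left out.

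**Figure D5:**
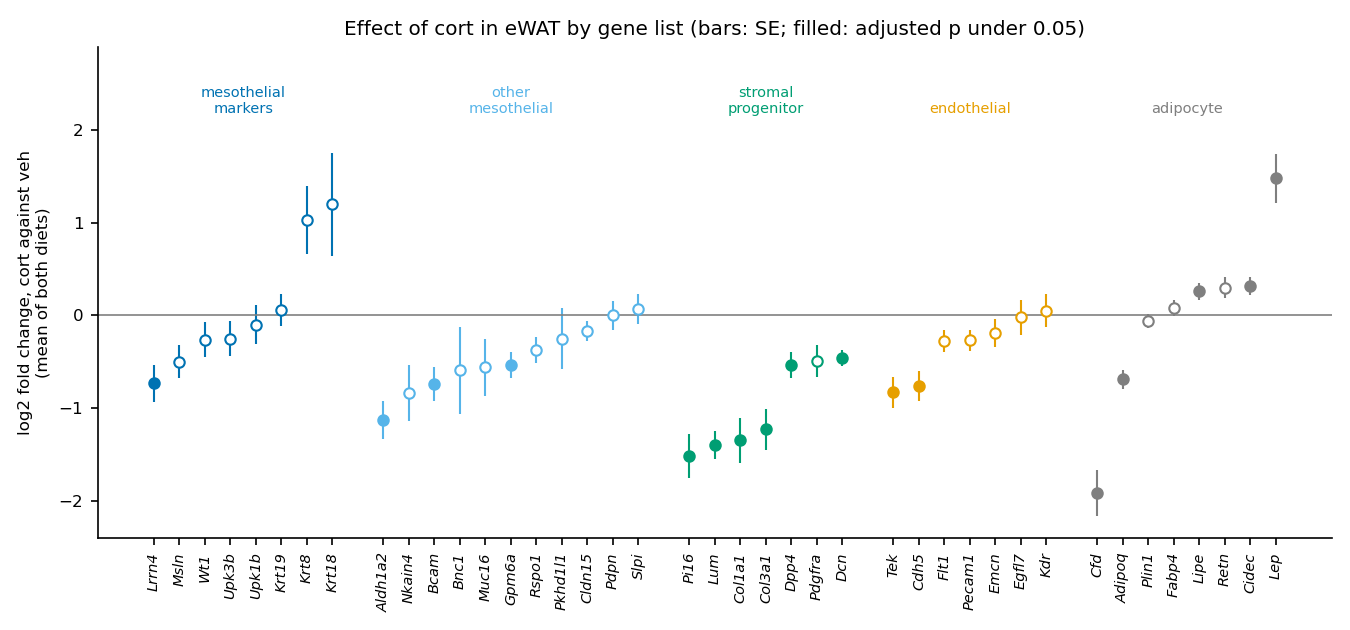
Log2 fold change of cort against veh, as the mean of both diets with all 16 libraries, for the genes of 5 lists ordered by value, with bars for the SE and filled points for an adjusted p under 0.05. Of the 8 mesothelial markers only Lrrn4 is filled, at −0.73, and of the stromal progenitor genes 6 of 7 are (7 of 7 without Cort HPD replicate 4, not drawn).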

How the data were processed

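The authors deposited raw counts of reads per Ensembl gene for 32 libraries (16 eWAT and 16 liver) made with QuantSeq 3′ kits, with replicates kept apart. The submitters' processing notes name GRCm38 (mm10), R 4.0.3 and limma, and the aligner and counter are not given in the sources used here. Of the gene IDs, 47224 had a symbol in the annotation, and 99 of 100 entries of the 12 gene lists matched. Members and lists were chosen with earlier results of these data known.

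The tests used edgeR 4.0.16 (R 4.3.3). All 16 eWAT libraries were fitted with 4 group means, after filterByExpr (minimum count 10, total 15) and TMM scaling, with robust dispersions and the quasi-likelihood test. A gene was called where its p, adjusted by Benjamini-Hochberg over 15187 genes (15571 without Cort HPD replicate 4), was under 0.05. The common biological coefficient of variation was 0.372. Liver was described only. CPM used TMM-scaled totals, whose factors lay between 0.928 and 1.061 in eWAT and between 0.726 and 1.453 in liver. Liver totals lay between 8933307 and 17447524.

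Profiles used log2(CPM + 0.5) less the group means. The text names all 8 members, up to 3 genes per list and direction with the smallest p for the mean cort effect among those called, and the 5 genes of most similar profile. Others were named after their values were seen. Alternatives were RLE factors, total counts, DESeq2 1.42.0, limma 3.58.1 voom, no filter, fits of only the groups compared, the replicate number as a block and each library left out. DESeq2 and voom without Cort HPD replicate 4 were added after the data were seen. No pair of the 24 within groups was identical. The test was tried on simulated counts for 14489 genes. With 200 genes changed by 1 log2 unit it recovered 56.5% for cort on the NPD and 95% for the mean of both diets. The simulated spread between libraries was set below the 0.372 found in eWAT. Only genes above a minimum mean count were changed, and no epididymal RNA was added. These shares are therefore not the power of the tests on the real libraries.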

Additional observations from a re-analysis of the deposited data

Results flagged for a closer look

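Each value here stood apart from the other 3 libraries of its group by a gap that took up more of the group's range than Dixon's critical value at the 95% level allows. Of 64 groups of 4 examined, 7 held such a value, and chance would give about 3.2. In eWAT, Krt18 in Cort HPD replicate 4 was 47.7 CPM against 2.63 to 4.59 in the others, in the library that carries epididymal RNA. Upk1b in Veh NPD replicate 1 was 27.4 CPM against 15.3 to 16.7, in the library with the largest summed level of the members. Wt1 in Cort HPD replicate 2 was 7.69 CPM against 11.2 to 11.8.

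In liver, where only Krt8 and Krt18 are abundant, Krt8 in Cort HPD replicate 1 was 90.3 CPM against 67.2 to 69.3. The other liver values were low, and no gene but Krt8 and Krt18 had more than 39 counts in a liver library. Upk1b in Cort HPD replicate 1 was 1.06 CPM against 0.156 to 0.230, Lrrn4 in Cort HPD replicate 3 was 1.02 against 0.0767 to 0.180 and Krt19 in Cort NPD replicate 1 was 2.20 against 0.875 to 1.01.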

How the results depend on the processing

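The fall of Lrrn4 for the mean of both diets held its adjusted p under 0.05 in all 6 alternatives with 16 libraries (−0.78 to −0.67) and with each library left out (−0.82 to −0.58), and lost it in voom without Cort HPD replicate 4 (−0.62), where 0 members were called. The cause was not tested. Members called for the mean numbered 2 with total counts, 2 with DESeq2, 2 with voom and 3 with no filter, and between 1 and 3 with a library left out, Msln or Krt8 being added (3 without Veh NPD replicate 2, Veh HPD replicate 4 or Cort HPD replicate 2). On the HPD 1 member, Lrrn4, was called with total counts, with DESeq2, with no filter and with the replicate block (−0.96, adjusted p = 0.024), and 0 or 1 with a library left out (1 without Veh NPD replicate 1 or 2, Veh HPD replicate 1 or Cort HPD replicate 1). Of all genes, 2240 to 2696 were called for the mean over the alternatives and 1972 to 2789 with a library left out. On the HPD these numbers were 643 to 1188 and 581 to 1265. The main fit called 2360 and 925, which were 15.5% and 6.09% of the genes tested.

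Same-numbered libraries showed little joint deviation: over 24 pairs r ran from −0.11 to 0.25, with 1 over 0.1 and a median of 0. The largest was Veh NPD replicate 2 with Cort NPD replicate 2. Such values cannot show whether libraries of the same number share a cohort, cage or day. The block changed no other call of a member. For all genes it moved the interaction from 2 to 9 calls. DESeq2 gave 126 and 195 calls for the diet under veh and cort, against 9 and 74.

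Some estimates that did not pass the test changed sign. With all libraries Krt18 was 1.80 for diet under cort and 1.95 for the interaction, Krt8 was 0.51 and 0.53, and the signs of these turned only without Cort HPD replicate 4. With total counts Krt19 was 0 for the mean and Wt1 0.03 for the interaction. Voom gave Krt18 0.02 for diet under veh, also without Cort HPD replicate 4, and the replicate block gave Lrrn4 −0.01 for diet under cort. Without Cort HPD replicate 4, DESeq2 and voom gave −0.28 and −0.24 for Upk1b and 0.15 and 0.13 for Krt19 under cort on the HPD. For diet under cort they gave −0.14 and −0.07 for Upk1b and −0.16 and −0.09 for Krt18, and DESeq2 −0.17 for Krt8. For the interaction DESeq2 gave 0.07 for Upk3b, 0.04 for Krt19 and −0.14 for Krt8, and voom 0.03 for Krt19 and −0.11 for Krt18.

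With each library left out, the effect of cort on the NPD ranged from −0.37 to 0.17 for Upk3b, −0.06 to 0.25 for Krt19 and −0.02 to 0.66 for Krt18. On the HPD it ranged from −0.28 to 0.31 for Upk1b and −0.30 to 0.15 for Krt19, and for the mean from −0.29 to 0.02 for Upk1b and −0.10 to 0.13 for Krt19. The diet effect under veh ranged from −0.33 to 0.21 for Upk3b, −0.36 to 0.08 for Upk1b, −0.05 to 0.46 for Wt1, −0.28 to 0.26 for Krt8 and −0.39 to 0.29 for Krt18. Under cort it ranged from −0.14 to 0.44 for Upk1b, −0.17 to 0.86 for Krt8, −0.16 to 2.14 for Krt18 and −0.17 to 0.15 for Lrrn4. The interaction ranged from −0.10 to 0.35 for Msln, −0.46 to 0.08 for Upk3b, −0.27 to 0.23 for Wt1, −0.41 to 0.06 for Krt19, −0.15 to 0.88 for Krt8 and −0.01 to 2.29 for Krt18. Krt8 and Krt18 had the fewest reads of the members, at most 91 and 89 counts outside Cort HPD replicate 4.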
